A study of Drosophila melanogaster with 16 samples.

Results

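Aminoacyl-tRNA synthetases are the enzymes that join each amino acid to its tRNA and so feed the ribosome. 22 of the 10459 genes measured in whole larvae were taken as synthetase genes because their symbol in the deposited table starts with Aats- or has the form of a 3-letter amino acid code followed by RS, with an optional -m for the mitochondrial enzyme. By their current FlyBase names, 15 were counted as cytosolic (AlaRS, ArgRS, AsnRS, AspRS, CysRS, GlnRS, GluProRS, HisRS, IleRS, LysRS, MetRS, ThrRS, TrpRS, TyrRS and ValRS) and 7 as mitochondrial (AlaRS-m, LeuRS-m, MetRS-m, PheRS-m, ProRS-m, SerRS-m and TyrRS-m). A name with no -m does not show that a gene serves the cytosol only. LeuRS-m, ProRS-m and SerRS-m stand in the table under older symbols with no -m. Another 9 synthetase genes that the symbols did not find (alpha-PheRS, beta-PheRS and the mitochondrial ArgRS-m, AsnRS-m, AspRS-m, GluRS-m, IleRS-m, TrpRS-m and ValRS-m) are described apart and not counted among the 22. The genes for GlyRS, cytosolic LeuRS, cytosolic SerRS and CysRS-m were not analysed here.

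Animal cells translate in both the cytosol and the mitochondrion, and most amino acids have a separate nuclear gene for the enzyme of each compartment. In humans the LysRS gene serves both. GluProRS is a fusion that charges tRNAs with glutamate and with proline, and cytosolic MetRS also charges the initiator tRNA with which every cytosolic protein begins. When amino acids are short, uncharged tRNA activates the kinase Gcn2, and synthetase genes are among the known targets of ATF4, the transcription factor of that response, which is called crc in flies.

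RNA came from whole larvae of the last instar of 2 lines, fed or fasted, and the methods of the study give the larvae as male. The control line had passed through the same CRISPR/Cas9 screening and carried no mutation in ERK7, and the ERK7 1 line carried a frameshift deletion in ERK7, which encodes an atypical MAP kinase, and is 1 mutant line. Larvae from a 3 h egg laying were moved to food 24 h later and, after 48 h on food by the sample labels (the methods of the study give a later age), to agarose in PBS for 6 h (fasted) or to fresh food (fed). The groups control fed, control fasted, ERK7 mutant fed and ERK7 mutant fasted had 4 libraries each, 16 in all, and the labels do not say whether the libraries of a group came from separate cultures. The paper reports that mutant larvae grew faster and pupariated earlier than controls. Larvae of the same age may therefore differ in developmental stage between the genotypes. Stage was not tested, and in every comparison of genotypes below it cannot be told apart from genotype.

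Libraries held 16482553 to 20601418 reads on the genes of the table, and levels are given as RPM, the read counts that the authors scaled to an effective library size, in which 1 read was worth 0.0472 to 0.0642 RPM. The mutated gene, Erk7, was read at 2.19 ± 1.08 RPM (SD, n = 4) in control fed and at 8.23 ± 2.00 in mutant fed larvae, and at 5.69 ± 3.64 and 7.16 ± 1.36 in the fasted groups, so its transcript level is no check of a small deletion. Of 24 testis markers 19 were in the table and none was at 0 in every library, and their summed level was 59.8 to 90.6 RPM in control fed, 171 to 237 in mutant fed, 68.1 to 161 in control fasted and 158 to 218 in mutant fasted libraries. The 5 fat body markers in the table (Fbp1 and Lsp2 were not) summed to 28665 to 47948 RPM in control fed and to 103950 to 124230 in mutant fed libraries, and to 11055 to 12618 and 24408 to 31214 in the control and mutant fasted ones. Single markers did not all follow the sum. With fasting in controls 4 were called lower and 1 higher, and in fed mutants 3 were called higher and 1 lower than in fed controls. The sum is therefore no measure of the amount of fat body. The 5 gut markers summed to 3934 to 4242 RPM in control fed and 4013 to 5070 in mutant fed libraries. In fasted controls they summed to 5839 to 6891.5 RPM and in fasted mutants to 4134 to 5174. The 5 nervous system markers summed to 87.8 to 93.3 RPM in control fed and 103 to 122 in control fasted libraries. Mutant fed libraries had 99.8 to 107 and mutant fasted ones 114 to 126 RPM. Sums of the 5 muscle markers overlapped between all groups (26601 to 42336 RPM). The part of these tissues in the results below was not tested, and in RNA of whole larvae fewer cells of a type and less RNA per cell cannot be told apart.

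Cytosolic synthetase transcripts were abundant and mitochondrial ones were mostly less so. Per kilobase of exon, the highest control fed level was that of AspRS at 153 RPM, followed by TyrRS at 101 and LysRS at 86.5, and apart from ThrRS at 17.9 and AsnRS at 0.63 every cytosolic gene lay at 41.2 (MetRS) or above. The mitochondrial genes ran from PheRS-m at 36.8 and TyrRS-m at 27.6 down to MetRS-m at 4.46 and SerRS-m at 1.76 RPM per kilobase. The AsnRS gene was read at only 1.24 to 1.74 RPM in control fed libraries. In control fed larvae the 15 cytosolic genes summed to 2557 ± 35.4 RPM (SD, n = 4) and the 7 mitochondrial genes to 233 ± 10.0 RPM.

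**Figure D1:**
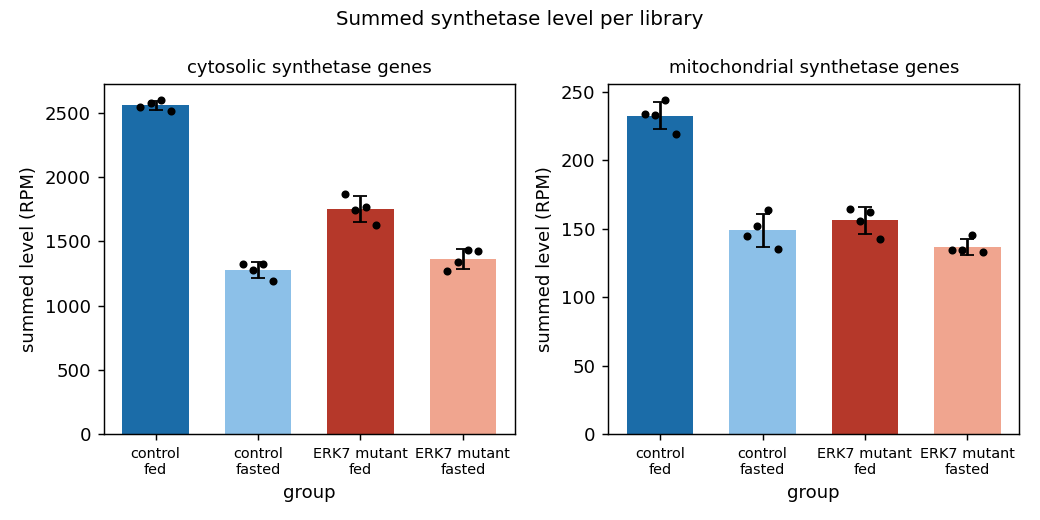
Summed level in RPM of the 15 cytosolic (left) and the 7 mitochondrial (right) synthetase genes in the 4 groups. Bars are means of 4 libraries, error bars are SD and points are libraries; the control fed libraries lie above all others in both panels (2515.5 to 2597 and 219 to 244 RPM), and the vertical scales differ.

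The first comparison asks what 6 h without food did to these genes in larvae with intact ERK7. All 15 cytosolic synthetase genes and 6 of the 7 mitochondrial genes fell in fasted control larvae, and in each of these 21 genes every fasted library lay below every fed one. Among all genes tested 69.7% passed in this comparison, 32.2% lower and 37.5% higher, and the groups did not overlap for 29.6% with fasted lower and for 28.1% with fasted higher. The median log2 fold change was -0.89 over the cytosolic genes and -0.64 over the mitochondrial genes, against 0.10 over all genes. The cytosolic genes summed to 1279 ± 61.7 RPM and the mitochondrial genes to 149 ± 11.9 RPM in control fasted larvae (SD, n = 4), and every fasted library had less of either sum than every fed one.

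The deepest fall was that of TrpRS (FBgn0010803, chromosome 3R 9265027 to 9266904, release 6), the tryptophan enzyme. Its level was 124, 129, 132 and 124 RPM in the control fed libraries and 42.3, 36.5, 36.3 and 42.3 RPM in the control fasted libraries. The fasted libraries lie close together and far below the fed ones, and TrpRS fell by 1.67 on the log2 scale (SE 0.08, adjusted p 1.47e-10, limma). ArgRS (FBgn0027093, chromosome X 15841769 to 15844145), the arginine enzyme, had 161, 151, 154 and 165 RPM in fed and 57.9, 50.3, 50.1 and 47.5 RPM in fasted control libraries. The fed values are again tightly grouped, and the log2 fold change was -1.60 (SE 0.07, adjusted p 1.76e-10).

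MetRS (FBgn0034401, chromosome 2R 18846858 to 18850599), which charges the initiator and elongator methionine tRNAs, had 140.4, 147, 137 and 136 RPM in fed and 56.1, 49.0, 46.4 and 52.0 RPM in fasted control libraries, a log2 fold change of -1.45 (SE 0.07, adjusted p 1.80e-10). AlaRS (FBgn0027094, chromosome 2L 8378262 to 8381764), the alanine enzyme, had 224, 230.4, 233 and 227 RPM in fed and 94.9, 78.7, 82.6 and 78.5 RPM in fasted control libraries, and fell by 1.44 (SE 0.09, adjusted p 2.51e-09). Both genes thus lost more than the median cytosolic gene did, with no overlap between fed and fasted libraries. ValRS (-1.43), the fusion gene GluProRS (-1.24) and CysRS (-1.16) followed, and IleRS (-0.89), ThrRS (-0.86), AspRS (-0.83), LysRS (-0.81) and HisRS (-0.78) formed a middle range. AsnRS (-0.53, from a level near 1 RPM, where the pseudocount shrinks a change), GlnRS (-0.40) and TyrRS (-0.28, adjusted p 0.00178) fell least among the cytosolic genes. In the exons of HisRS 255 bases overlap the neighbouring gene Bx on the same strand, and in those of AspRS 154 bases overlap a non-coding RNA gene annotated on the same strand, so reads there cannot be assigned with certainty. Genes on the opposite strand overlap 1575 of the 2266 exon bases of AspRS, 905 of the 5453 of GluProRS and 356 of the 2552 of SerRS-m, and at most 54 bases of any other member. The authors counted by strand, but the library protocol in the labels names no step that marks strand, and if the libraries did not keep it, reads of these genes and of their antisense partners cannot be told apart.

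Among the mitochondrial genes the fall of MetRS-m, the methionine enzyme of the organelle, was the deepest at -1.26 (SE 0.11, adjusted p 8.49e-08), from 19.3 ± 1.73 RPM to 7.52 ± 1.51 (SD, n = 4). AlaRS-m (-0.67), LeuRS-m (-0.67), PheRS-m (-0.64), ProRS-m (-0.41) and TyrRS-m (-0.39, adjusted p 0.00296) changed less. SerRS-m, the serine enzyme and the least abundant of the 7, had 4.48 ± 0.626 RPM in fed and 3.95 ± 0.675 in fasted control larvae, a log2 fold change of -0.15 that did not pass the test (adjusted p 0.254). No call among the 22 genes in this comparison was lost when any 1 of the 16 libraries was left out.

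**Figure D2:**
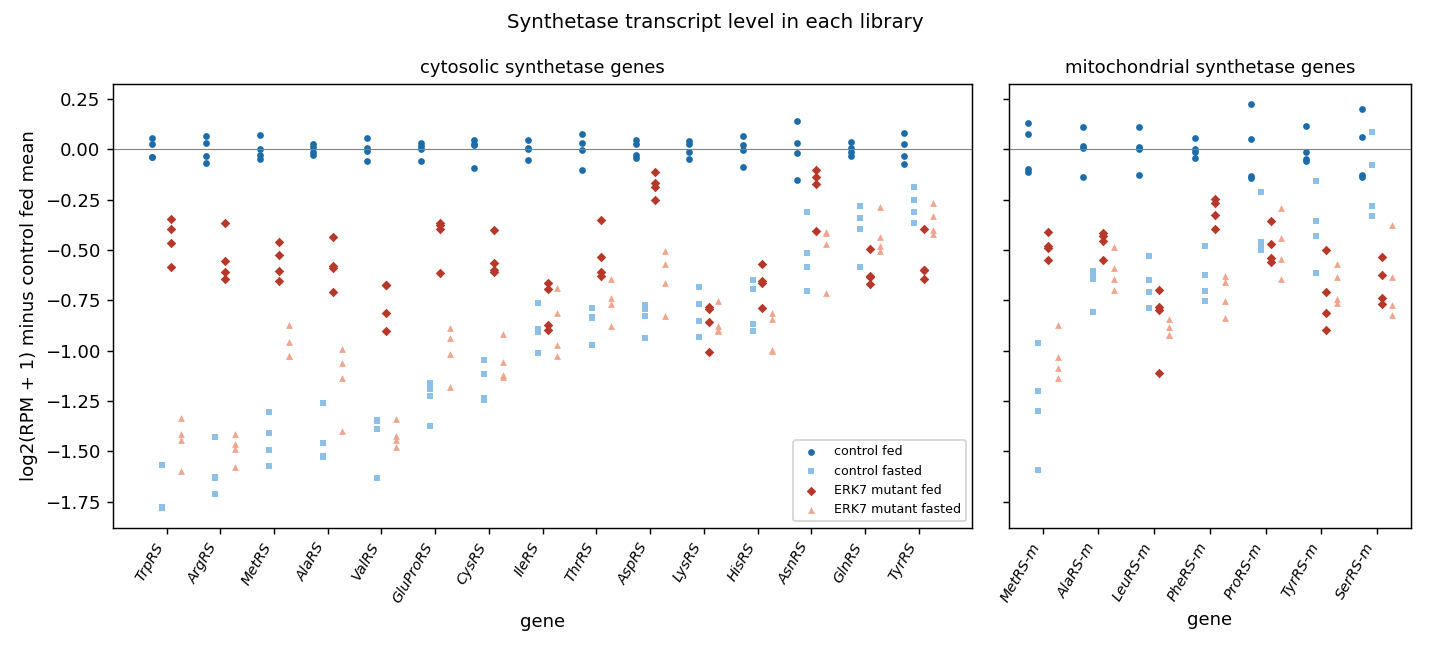
Level of each synthetase gene in each of the 16 libraries, as log2(RPM + 1) minus the mean of the 4 control fed libraries, for cytosolic genes (left) and mitochondrial genes (right), ordered by the fasting change in controls. Points are libraries; TrpRS, at the left, falls by 1.67 in fasted controls and TyrRS by 0.28.

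In fed larvae the ERK7 mutants had less transcript of nearly every synthetase. 14 of the 15 cytosolic and all 7 mitochondrial genes were lower in mutant fed than in control fed larvae, against 26.0% of all genes called lower and 25.6% higher (51.5% in either direction). For those 21 genes no mutant library reached the lowest control library, which holds for 25.9% of all genes, with 25.3% on the higher side. The median log2 difference was -0.56 for the cytosolic and -0.48 for the mitochondrial genes, and the summed levels were 68.5% and 67.2% of those of control fed larvae. The control fed libraries are the same as in the comparison of fasted with fed controls, so the sizes of both are not independent.

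LysRS (FBgn0027084, chromosome X 9606363 to 9608884), the lysine enzyme, differed most. It had 201, 194, 199 and 189 RPM in control fed and 114, 108, 113 and 97.0 RPM in mutant fed libraries. The highest mutant value lies far under the lowest control value, and the log2 difference was -0.86 (SE 0.07, adjusted p 1.88e-07). The mitochondrial leucine enzyme gene LeuRS-m (FBgn0027085, chromosome 3L 4825853 to 4829038) had 53.6, 57.6, 53.2 and 48.6 RPM in control fed and 30.2, 30.5, 32.3 and 24.0 RPM in mutant fed libraries, and was lower by a log2 difference of -0.85 (SE 0.09, adjusted p 2.09e-06).

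IleRS (FBgn0027086, chromosome 3L 22288665 to 22292810), the isoleucine enzyme, had 279.7, 291, 290.3 and 299 RPM in control fed and 183, 155, 179 and 158 RPM in mutant fed libraries (-0.78, SE 0.08, adjusted p 2.84e-06). ValRS (FBgn0027079, chromosome 2R 13198850 to 13202709), the valine enzyme, had 137, 148, 143 and 141 RPM in control fed and 88.5, 80.4, 88.7 and 75.5 RPM in mutant fed libraries (-0.77, SE 0.07, adjusted p 1.23e-06). These 4 genes hold the first places in this comparison, whereas TrpRS, first in the fasting comparison of controls, differed by -0.45. The mitochondrial genes TyrRS-m (-0.73) and SerRS-m (-0.67) followed, then ProRS-m and MetRS-m (both -0.48), AlaRS-m (-0.46) and PheRS-m (-0.31).

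2 cytosolic genes differed little. AspRS had 353, 340.3, 358 and 337 RPM in control fed and 309, 320.3, 305 and 291 RPM in mutant fed libraries, a log2 difference of -0.18 (adjusted p 0.0372). Its groups do not overlap, but the call was lost without control fed replicate 1, 2 or 3 or mutant fed replicate 1, 3 or 4 and in 3 other alternatives (adjusted p 0.0513 to 0.989 in these 9, the highest after quantile normalization). AsnRS was at 1.24 to 1.74 RPM in control fed and 0.879 to 1.32 RPM in mutant fed libraries, ranges that overlap, and did not pass the test (-0.21, adjusted p 0.0992).

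Fasting lowered fewer synthetase genes, and by less, in ERK7 mutants than in controls. In mutant larvae 11 of 15 cytosolic and 2 of 7 mitochondrial genes fell with fasting and 2 cytosolic genes rose, where 25% of all genes fell and 23.7% rose (48.7% called). The fed and fasted libraries did not overlap for 11 cytosolic and 2 mitochondrial genes, all lower in fasted mutants, and for 23.1% of all genes lower and 22.7% higher. Median log2 fold changes were -0.41 and -0.04 for the cytosolic and mitochondrial genes. The genes that fell most were largely those of the controls: TrpRS, ArgRS, ValRS and AlaRS.

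TrpRS went from 99.9, 91.8, 96.6 and 84.6 RPM in mutant fed to 41.4, 46.2, 47.1 and 49.9 RPM in mutant fasted libraries (-1.0, SE 0.08, adjusted p 8.19e-08). ArgRS went from 122, 107, 101 and 103 RPM to 56.5, 52.2, 55.5 and 58.6 RPM (-0.94, SE 0.07, adjusted p 1.23e-07). In both genes the mutants started from a lower fed level and ended at 46.1 and 55.7 RPM on average, beside 39.3 and 51.4 RPM in fasted controls. ValRS went from the mutant fed values given above to 50.3, 52.3, 55.5 and 51.6 RPM (-0.65, SE 0.07, adjusted p 3.85e-06). AlaRS went from 169, 153, 152 and 139 RPM to 85.9, 103, 114 and 109 RPM (-0.57, SE 0.09, adjusted p 8.60e-05), with no overlap in either gene.

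Some genes did not fall in the mutants. LysRS, at 108 ± 7.58 RPM in mutant fed and 108 ± 5.39 in mutant fasted larvae (SD, n = 4), had a log2 fold change of 0.00 (SE 0.07, adjusted p 0.979), and that of IleRS was -0.09 (SE 0.08, adjusted p 0.390). TyrRS (FBgn0027080, chromosome 3L 16417349 to 16419302), the tyrosine enzyme, had 136, 118, 114 and 118 RPM in mutant fed and 142, 149, 136 and 134 RPM in mutant fasted libraries. The ranges overlap narrowly, at 134 to 136, and TyrRS rose by 0.21 (SE 0.07, adjusted p 0.0191), a call lost without mutant fed replicate 3 or mutant fasted replicate 2 (highest adjusted p 0.0600). GlnRS (FBgn0027090, chromosome 3R 25263267 to 25265721) had 80.8, 73.6, 71.7 and 73.3 RPM against 84.5, 81.9, 93.7 and 80.3 RPM, and its call (0.18, adjusted p 0.0457) was lost without any 1 of 12 of the 16 libraries (all but mutant fed replicate 1, control fasted replicates 3 and 4 and mutant fasted replicate 4) and in 2 other alternatives, with adjusted p between 0.0507 and 0.146. The falls of ThrRS (-0.23) and AsnRS (-0.30) were also lost, without mutant fed replicate 1 or mutant fasted replicate 4 for ThrRS (highest adjusted p 0.0685) and without mutant fed replicate 2 or 4 or mutant fasted replicate 1 for AsnRS (highest adjusted p 0.0945). Of the mitochondrial genes only MetRS-m (-0.55, adjusted p 0.000667) and PheRS-m (-0.41, adjusted p 0.000137) fell, and LeuRS-m, ProRS-m, SerRS-m and TyrRS-m had log2 fold changes between -0.04 and 0.05.

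**Figure D3:**
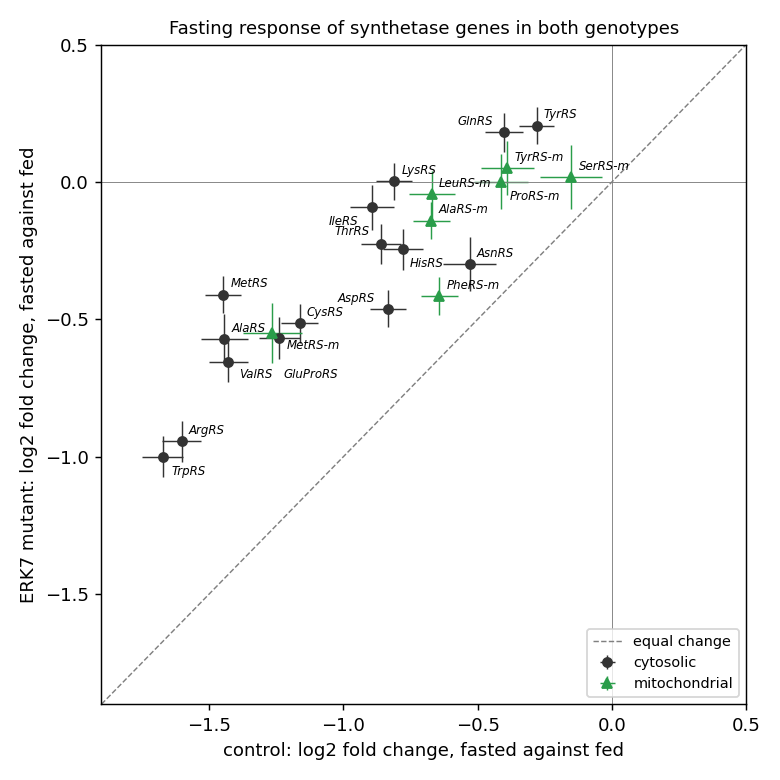
Log2 fold change of fasted against fed larvae in controls (horizontal) and in ERK7 mutants (vertical) for the 22 synthetase genes, with the SE from the limma fit as error bars; the dashed line marks equal change. All 22 points lie above the line, from TrpRS (-1.67 in controls, -1.0 in mutants) to TyrRS (-0.28 and 0.21).

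Whether fasting acted differently in mutants than in controls was tested with an interaction term. It was above 0, with the mutant change the less negative one or the more positive one, for 22 of 22 genes, and it passed the test for 14 cytosolic and 5 mitochondrial genes, where 18.2% of all genes had a higher and 13.7% a lower value (31.9% called). Over all genes the mutant change exceeded the control change for 4862 of 10459 and the median interaction was -0.03, against 0.66 for the cytosolic and 0.44 for the mitochondrial genes. Across the 22 genes the control and mutant fasting changes, which share no library, were ordered alike (Pearson's r 0.89, Spearman's rho 0.86, across genes that share their libraries, with 0.70 for the Pearson value over all genes). This interaction uses the same 16 libraries as the fed comparison, in which the mutants were already lower, and is not separate evidence from it.

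MetRS showed the largest interaction of the 22 genes. Its mutant fed libraries had 101, 91.9, 97.1 and 88.6 RPM and its mutant fasted libraries 68.2, 68.3, 76.1 and 71.7 RPM, so that it fell by 0.41 in mutants and by 1.45 in controls (interaction 1.04, adjusted p 5.84e-06). AlaRS (0.87), LysRS (0.81) and IleRS (0.80) came next. LysRS had 108, 115, 121 and 102 RPM in control fasted and 106, 105, 116 and 104 RPM in mutant fasted libraries, and IleRS had 170.3, 154, 156 and 143 RPM in control fasted and 142, 147, 165 and 179 RPM in mutant fasted libraries. For both, the control fasted and mutant fasted libraries overlap with each other and the means of the mutant fed libraries (108 and 169 RPM) are close to them, so that only the control fed libraries stand apart. AsnRS (0.23, adjusted p 0.218), PheRS-m (0.23, adjusted p 0.0828) and SerRS-m (0.17, adjusted p 0.451) did not pass, and the calls of ProRS-m (0.41) and TyrRS-m (0.44) were lost, with adjusted p up to 0.0701 and 0.0593. This happened for both without control fed replicate 3, mutant fed replicate 2 or 4, control fasted replicate 4 or mutant fasted replicate 3, and for ProRS-m also without control fed replicate 4, mutant fed replicate 3, control fasted replicate 1 or 2 or mutant fasted replicate 4.

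Between fasted mutants and fasted controls, 14 of the 22 genes did not pass the test. Among all genes 5781 of 10459 did not pass, a share not far from that of the 22. Log2 differences of the 22 ran from -0.50 to 0.48. The directions by compartment given next rest on few calls, most of which were lost when a single library was left out. 5 cytosolic genes were higher in mutant fasted than in control fasted larvae and none was lower, and 3 mitochondrial genes were lower and none was higher, whereas of the mitochondrial genes outside the 22, TrpRS-m (0.52) and AspRS-m (0.18) were higher. Of all genes 44.7% were called, 20.9% lower and 23.8% higher, beside 5 of 15 cytosolic genes higher and 3 of 7 mitochondrial genes lower, and the groups did not overlap for 1 cytosolic (higher) and 2 mitochondrial genes (lower), beside 16.3% of all genes higher and 16.9% lower. The medians were 0.10 for the cytosolic and -0.08 for the mitochondrial genes, and the summed cytosolic levels of the groups overlap (1192 to 1325 RPM in control fasted and 1269.8 to 1434 RPM in mutant fasted libraries).

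MetRS was the most different cytosolic gene, with every mutant fasted library above every control fasted one (0.48, SE 0.07, adjusted p 0.000144). SerRS-m (FBgn0021750, chromosome 3R 15340667 to 15343218) had 3.33, 4.80, 3.49 and 4.18 RPM in control fasted and 3.21, 2.19, 2.09 and 2.51 RPM in mutant fasted libraries. No mutant library reached a control library, at levels of few RPM, and the log2 difference was -0.50 (SE 0.12, adjusted p 0.00419). TyrRS-m (FBgn0035064, chromosome 2R 24781726 to 24783500) had 31.2, 32.9, 37.9 and 27.3 RPM in control fasted and 24.9, 26.9, 28.2 and 24.6 RPM in mutant fasted libraries, which overlap (-0.29, SE 0.10, adjusted p 0.0289).

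AlaRS (0.29, adjusted p 0.0161), GluProRS (0.23, adjusted p 0.0242), TrpRS (0.23, adjusted p 0.0257) and AspRS (0.19, adjusted p 0.0338) were the other cytosolic genes that were higher, and LeuRS-m (-0.22, adjusted p 0.0468) the other mitochondrial gene that was lower. The calls of MetRS and SerRS-m were kept when any single library was left out, and the other 6 were each lost without at least 1 of them: AlaRS without control fasted replicate 2 (highest adjusted p over its lost alternatives 0.0636), GluProRS without control fasted replicate 4 or mutant fasted replicate 3 or 4 (0.0706), TrpRS without any 1 of 5 (0.0812), AspRS of 6 (0.109), TyrRS-m of 4 (0.0978) and LeuRS-m of 11 libraries (0.137). The number of cytosolic genes called went from 5 to 2 without control fasted replicate 2 or mutant fasted replicate 3 or 4 and to 3 without control fasted replicate 4 or mutant fasted replicate 2, and the number of mitochondrial genes from 3 to 1 without control fasted replicate 2 or 3 or mutant fasted replicate 1 or 4.

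Both enzymes of 1 amino acid can be compared within a library, where the scaling of the library nearly cancels. The ratio, as log2(RPM + 1) of the cytosolic minus that of the mitochondrial gene, was tested for 4 pairs among the 22 genes in 4 comparisons by two-sided exact permutation of 4 against 4 libraries, whose smallest possible p is 0.0286, and p is given unadjusted. For alanine the ratio was 2.25 ± 0.0907 in control fed and 1.48 ± 0.133 in control fasted larvae (SD, n = 4), so the cytosolic gene fell by more than the mitochondrial gene (difference -0.77, exact p 0.0286). For GluProRS against ProRS-m the difference was -0.83 (exact p 0.0286). For methionine (-0.18, exact p 0.229) and tyrosine (0.11, exact p 0.171) the difference did not pass. In mutants the same 2 pairs passed with fasting, with differences of -0.43 for alanine and -0.57 for GluProRS against ProRS-m (exact p 0.0286 for each).

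Between fed mutants and controls 1 of the 4 ratios passed, that of tyrosine, which was higher in mutants by 0.17 (exact p 0.0286), and between fasted mutants and controls that of GluProRS against ProRS-m, higher by 0.30 (exact p 0.0286). 7 further pairs with a mitochondrial gene outside the 22, added after seeing the data, went both ways with fasting in controls. The cytosolic gene fell by more than the mitochondrial gene for arginine (-0.74), tryptophan (-0.89) and valine (-0.89), and by less for isoleucine, where the ratio was higher in fasted larvae by 0.53 (exact p 0.0286 for each). The same 4 pairs passed with fasting in mutants, in the same directions (-0.62, -0.79, -0.52 and 0.46, exact p 0.0286 for each). GluProRS against GluRS-m, the other mitochondrial counterpart of the fusion gene, did not pass with fasting in controls (-0.36, exact p 0.0857) or in mutants (-0.06, exact p 0.8). The result for GluProRS thus depends on the mitochondrial gene it is set against. Between fed mutants and controls 4 of the 7 passed, with a lower ratio in mutants for valine (-0.65) and a higher one for asparagine (0.47, from an AsnRS level near 1 RPM), aspartate (0.34) and isoleucine (0.24, exact p 0.0286 for each), and between fasted mutants and controls none of the 7 passed (smallest exact p 0.0571).

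**Figure D4:**
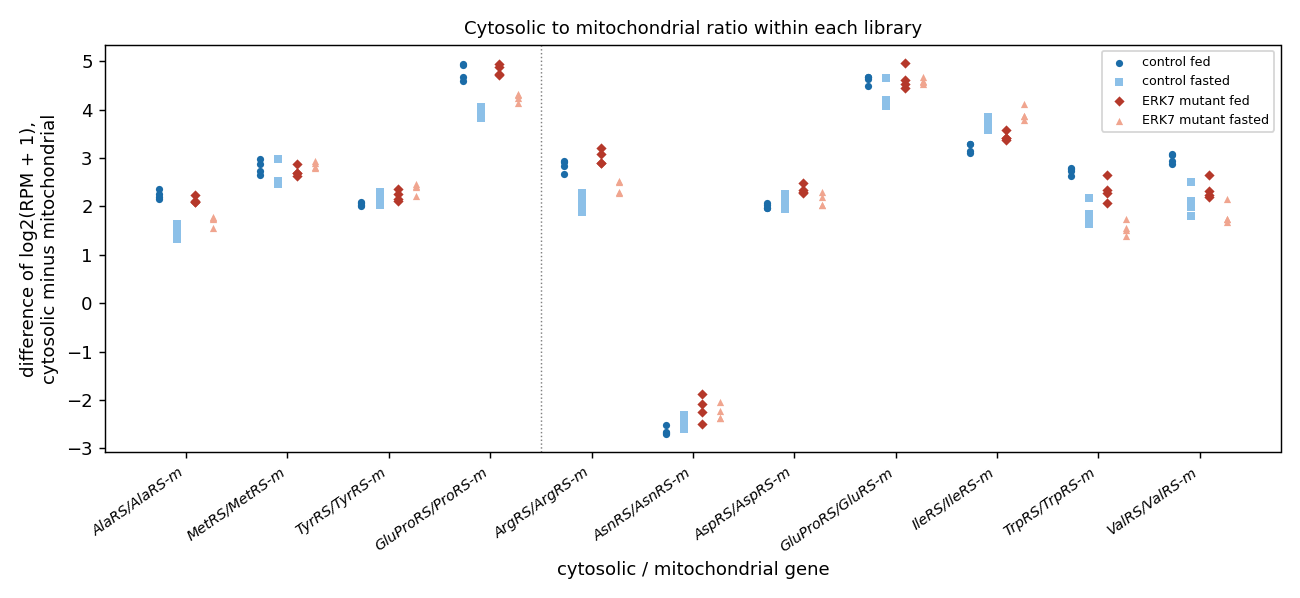
Difference of log2(RPM + 1) between the cytosolic and the mitochondrial gene of 1 amino acid in each of the 16 libraries, for the 4 pairs among the 22 genes (left of the dotted line) and the 7 further pairs. Points are libraries of the 4 groups; for alanine the control fed mean is 2.25 and the control fasted mean 1.48.

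The 9 synthetase genes outside the symbol rule gave a fuller view of the mitochondrial set. All 9 fell with fasting in controls, from beta-PheRS (-1.45) and IleRS-m (-1.42) to ValRS-m (-0.54), beside 32.2% of all genes. The subunit genes alpha-PheRS and beta-PheRS, which together form the cytosolic phenylalanine enzyme, went from 122 ± 5.58 and 113 ± 6.93 RPM in control fed to 53.1 ± 3.18 and 41.0 ± 4.84 RPM in control fasted larvae (SD, n = 4). In fed mutants 7 of the 9 were lower, IleRS-m most (-1.02), beside 26.0% of all genes. TrpRS-m (-0.05, adjusted p 0.782) and ValRS-m (-0.12, adjusted p 0.416) did not pass the test. The median fasting change in controls over the 7 mitochondrial genes outside the rule was -0.86, beside -0.64 for the 7 inside it. With all 9 genes added to both compartments, the medians were -1.16 over 17 cytosolic and -0.68 over 14 mitochondrial genes, beside the -0.89 and -0.64 of the 22. The cytosolic median moved through the 2 subunit genes of the phenylalanine enzyme alone (-1.19 and -1.45). The -0.86 of the 7 added mitochondrial genes lies near the -0.89 of the 15 cytosolic genes, so these genes do not widen the gap between compartments.

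Genes that work with the synthetases moved with them. AIMP1, AIMP2 and AIMP3 encode orthologues of the scaffold proteins that hold several cytosolic synthetases in a complex in mammals, Slimp a paralogue of the mitochondrial serine enzyme, GatA and GatB subunits of the amidotransferase that makes mitochondrial glutaminyl-tRNA, and Dtd a deacylase that frees tRNA from D-amino acids. GatC was not analysed here. All 7 fell with fasting in controls, by -0.59 (AIMP3) to -1.19 (Slimp), and all 7 were lower in fed mutants than in fed controls, with medians of -0.96 and -0.58. AIMP2, for example, was at 120.6 RPM in control fed, 80.4 in mutant fed, 58.8 in control fasted and 56.4 in mutant fasted larvae. In fasted mutants 1 of the 7 was lower than in fasted controls (GatB, -0.23), near the 20.9% of all genes. The interaction was higher for 6, all but Dtd, beside 18.2% of all genes.

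The genes of the amino acid shortage response did not move as a group. With fasting in controls Thor, the translation inhibitor 4E-BP, rose from 18.3 to 500.2 RPM (log2 fold change 4.71, SE 0.23, adjusted p 2.82e-10), and trbl (0.67), crc (0.37) and the kinase gene Gcn2 (0.34) rose too. AsnS, the enzyme that makes asparagine, fell from 106.1 to 23.7 RPM (-2.12), and the kinase gene PEK (-0.56) and the phosphatase subunit gene PPP1R15 (-0.33) fell. In fed mutants Thor was at 56.0 RPM and higher than in fed controls (1.52, adjusted p 7.94e-05), trbl was higher (0.37, adjusted p 0.00294) and Gcn2 was lower (-0.38, adjusted p 0.000483). In fasted mutants AsnS was at 58.8 RPM and higher than in fasted controls (1.13, adjusted p 0.00536), PEK was higher (0.57, adjusted p 0.000696) and crc was lower (-0.19, adjusted p 0.0334). The other genes of the list did not pass in the respective comparison. The AsnS libraries spread from 29.0 to 97.7 RPM in fasted mutants, beside 20.3 to 28.5 RPM in fasted controls. The interaction of AsnS did not pass (0.80, adjusted p 0.125).

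Ribosomal protein genes, the other machinery of each compartment, set the synthetase values in context. Of 66 mitochondrial ribosomal protein genes 65 fell with fasting in controls (median -1.17) and 66 were lower in fed mutants (-0.81). Of 83 cytosolic ribosomal protein genes 8 fell and 4 rose with fasting in controls (median 0.01), while 74 were lower and 6 higher in fed mutants (-0.47). Cytosolic synthetase genes thus fell in fasted controls while few cytosolic ribosomal protein genes passed the test, and in fed mutants most genes of both groups were lower. With fasting in mutants 48 of the 66 fell and 1 rose (median -0.48), and of the 83 cytosolic ribosomal protein genes 62 rose and 1 fell (0.38). The interaction was called higher for 59 of the 66 (0.68) and for 48 of the 83 (0.35, with 1 lower), beside 18.2% of all genes. A positive interaction is therefore not particular to the synthetase genes.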

How the data were processed

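The authors trimmed reads with Trimmomatic, mapped them with TopHat2 2.1.0 to the FlyBase release 6 genome, counted them strand-specifically on exons with HTSeq and removed genes with few reads. Their deposited values per library are linear signal values, counts scaled to the effective library size and called RPM here, and 100% of them were whole multiples of 1 read (tolerance 0.0001). The authors' mean levels, fold changes, t values and p-values in the same table were not used.

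limma 3.58.1 (lmFit, eBayes) in R 4.3.3 was fitted to log2(RPM + 1), pseudocount 1, with 4 group means over 16 libraries, and genes were called at 0.05 after Benjamini-Hochberg adjustment of all 10459 p-values. A fold change on this scale understates that of genes with low levels. The fit was tested on simulated data. edgeR 4.0.16 and DESeq2 1.42.0 on the recovered reads were alternatives. Libraries were taken as independent. P-values therefore measure the spread between libraries, which may be technical. The 24 pairs of libraries within groups differed by more than sampling noise (chi-square per degree of freedom 12.2 to 51.1).

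All members are named, and the 4 with the largest change among those called in each comparison are given by library. Members and lists were chosen with earlier results of these data known. Current names and coordinates were looked up in newer annotation tables for the same release 6 assembly, which named 10305 of the 10459 genes and 22 of 22 members, and exon lengths are merged exons. Promoter and protein sequences were not used here.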

Additional observations from a re-analysis of the deposited data

Results flagged for a closer look

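The fasting response differed between the genotypes for 19 of the 22 synthetase genes by the interaction term of the limma fit (adjusted p under 0.05), always towards a smaller fall, or a rise, in mutants. On the log2 scale the cytosolic values were 1.04 for MetRS, 0.87 for AlaRS, 0.81 for LysRS, 0.80 for IleRS, 0.77 for ValRS, 0.67 for TrpRS, 0.67 for GluProRS, 0.66 for ArgRS, 0.65 for CysRS, 0.63 for ThrRS, 0.58 for GlnRS, 0.53 for HisRS, 0.49 for TyrRS and 0.37 for AspRS. The mitochondrial values were 0.71 for MetRS-m, 0.63 for LeuRS-m, 0.53 for AlaRS-m, 0.44 for TyrRS-m and 0.41 for ProRS-m. Outside the symbol rule they were 0.86 for IleRS-m, 0.80 for beta-PheRS, 0.69 for AspRS-m, 0.57 for TrpRS-m, 0.56 for alpha-PheRS, 0.54 for ArgRS-m and 0.47 for AsnRS-m.

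In 5 of 124 groups of 4 libraries 1 library lay far from the other 3 by Dixon's criterion, which chance gives in about 1 of 20. These were GluProRS in mutant fed replicate 4 (185.9 RPM), LysRS in mutant fasted replicate 3 (115.9 RPM), ValRS in control fasted replicate 4 (45.17 RPM), ProRS-m in control fasted replicate 3 (7.978 RPM) and GluRS-m in control fed replicate 3 (12.01 RPM).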

How the results depend on the processing

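No direction of a called gene was reversed under any alternative, and 2620 of the values of single genes stayed on their side of the threshold, while 92 lost and 6 gained a call. With the 9 synthetase genes outside the symbol rule included (chosen after seeing the data), the mitochondrial set held 7 members and 7 added genes. Of this set 13 were called in controls with fasting, 12 in fed mutants and 5 in fasted mutants against fasted controls. In mutants with fasting 7 were called, and 10 for the interaction. With the compartment read from the deposited symbol (also chosen afterwards), only AlaRS-m, MetRS-m, PheRS-m and TyrRS-m counted as mitochondrial. Of these 4 genes, 4 were called in fed mutants, 1 between fasted groups and 3 for the interaction. The fit was the same for both alternatives, so no call of a single gene changed. Between fasted groups, quantile normalization left 1 mitochondrial gene, a fit of only the 8 libraries left 1 cytosolic gene, adjusted p under 0.01 left 1 and 1, and a minimum log2 fold change of 0.5 left 0 and 0. With that minimum 3 mitochondrial genes were called in fed mutants, 6 cytosolic and 1 mitochondrial in mutants with fasting, and 3 mitochondrial for the interaction. At 0.01, 8 cytosolic genes were called in mutants with fasting and 3 mitochondrial for the interaction.

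Leaving out 1 library gave 15 cytosolic and 6 mitochondrial genes in controls with fasting, 13 to 14 and 7 in fed mutants, 11 to 13 and 2 in mutants with fasting, 2 to 5 and 1 to 4 between fasted groups, and 14 and 3 to 6 for the interaction. With a pseudocount of 0.1 the ratio of ArgRS to ArgRS-m between fasted groups, 0.32, passed (exact p 0.0286), and that of AsnRS to AsnRS-m between fed groups, 0.39, no longer did (exact p 0.114).

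Libraries of the same number were not more alike (residual correlation -0.32 to 0.29 over 24 pairs, above 0.1 for 6), so the numbers were not taken as pairing. With the replicate block 13 cytosolic genes were called in fed mutants and 6 mitochondrial genes for the interaction, and the other counts were those of the fit without it. Depth limits AsnRS, SerRS-m and ProRS-m, whose mean was under 10 RPM in every group.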
